A study of Sus scrofa with 6 samples.

Results

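MDK, PTN and PTPRZ1 encode 2 secreted growth factors and a receptor that binds both of them. Midkine (MDK) and pleiotrophin (PTN) are small, basic, heparin-binding proteins that form a family of their own. PTPRZ1 is a receptor-type protein tyrosine phosphatase whose extracellular part carries chondroitin sulfate chains, to which both ligands bind. Ligand binding is known to lower the phosphatase activity of the receptor, so that phosphorylation of its substrates increases. In the developing brain the receptor is best known from radial glia, astrocytes and the oligodendrocyte lineage, and pleiotrophin has been studied as a survival factor for midbrain dopaminergic neurons. The genes were taken by symbol from the feature list, in which 3 of 30477 genes carried these names, each on a single line, and all 3 were abundant enough to be tested in whole organoids, as were 22192 genes in all.

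The data were single-cell RNA sequencing counts of porcine midbrain-like organoids (pMLOs). The organoids came from 1 pluripotent line, the embryonic stem cell line IVF_1_ pESC_FIW, and were sampled at day 11 (D11), day 28 (D28) and day 45 (D45) with 2 libraries, A and B, per day. Embryoid bodies of all groups received SB431542, Noggin, SHH-C24II and CHIR99021 from day 0, then FGF8 and later BDNF with ascorbic acid. Matrigel embedding on day 13, followed by terminal differentiation in BDNF, GDNF, ascorbic acid, db-cAMP and DAPT, applied to the D28 and D45 organoids and not to those of D11, so age and culture medium cannot be told apart. The labels call the cells midbrain dopaminergic neurons, but TH, which encodes the rate-limiting enzyme of dopamine synthesis, reached between 11.5 and 55.1 CPM in the 6 libraries, and the sums contained many other cell types. CPM here means the unique molecular identifiers (UMIs) of a gene per 1000000 UMIs of the same cells.

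Of 104820 deposited barcodes, 102940 were kept, and a library held from 106805311 to 180034791 UMIs. Median UMIs per cell fell from 10757 and 8845 in the D11 libraries to 2300.5 and 4341 in those of D45, and any pair of libraries shared 55 to 119 barcode sequences. The D28 libraries stood apart from each other most in the fibroblast list: COL1A1, COL3A1, LUM and DCN, 4 of 4 fibroblast markers and none at 0, summed to 915.5 CPM in library A and 108.9 CPM in library B, against 9.83 to 14.4 CPM on D11 and 422.9 to 1300.7 CPM on D45. They also differed in the oligodendrocyte lineage list, 5 of 5 markers and none at 0, at 21.2 CPM in library A and 65.9 CPM in library B. The changes of the 3 genes between days are therefore also given without the cells that had at least 2 COL1A1 UMIs, whereas the ligand ratios and the pathway genes are given with all cells only.

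The most similar stretch of coding sequence found between both ligand genes is shown here. In the Sscrofa11.1 assembly MDK (ENSSSCG00000013260) lies at chr2:16130787-16133791 on the minus strand with 4 annotated transcripts, PTN (ENSSSCG00000016522) at chr18:12219708-12309045 on the plus strand with 3, and PTPRZ1 (ENSSSCG00000016614) at chr18:25046027-25228276 on the minus strand with 4. Windows of 60 coding bases were compared ungapped and in frame, within single exons of the transcript with the longest coding sequence. The most similar pair fell in the third coding exon of either ligand gene, at chr2:16131905-16131964 (minus strand) and chr18:12291315-12291374 (plus strand). Capitals mark the 40 bases (66.7%) that were the same in both, and the sequences are from the RefSeq annotation of that assembly:
MDK: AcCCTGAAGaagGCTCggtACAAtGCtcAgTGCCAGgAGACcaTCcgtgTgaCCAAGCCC
PTN: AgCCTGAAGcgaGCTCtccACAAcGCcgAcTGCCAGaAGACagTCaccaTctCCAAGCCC
The libraries count transcript ends and not this window. The last 294 bases of MDK overlap CHRM4, a muscarinic receptor gene on the opposite strand, and PTN overlaps 2 non-coding RNA genes on the opposite strand. How reads of opposite strands were assigned is not given in the sources used here, so MDK and PTN counts are uncertain to that extent.

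In whole organoids MDK was highest on D11, and PTN and the receptor were highest on D45. MDK was at 1265 and 1596 CPM in the D11 libraries, 789.6 and 282.9 CPM in those of D28, and 483.8 and 707.0 CPM in those of D45. Both D11 libraries were above all 4 later ones, while the D28 values differed 2.79-fold from each other and enclosed those of D45. In these sums of all cells, fewer cells of a type and less RNA per cell cannot be told apart.

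MDK did not pass the test between any pair of days, although 2 of the 3 differences had an unadjusted p under 0.05. The log2 change was -1.62 (SE 0.545, adjusted p = 0.0727) from D11 to D28, -0.05 (SE 0.53, adjusted p = 0.958) from D28 to D45 and -1.67 (SE 0.546, adjusted p = 0.0520) from D11 to D45, by the quasi-likelihood test of edgeR, with p-values adjusted after Benjamini and Hochberg over all genes tested. Without the cells that had at least 2 COL1A1 UMIs, a setting chosen after the data were seen, the D28 and D45 differences from D11 passed, at -1.91 (adjusted p = 0.0270) and -1.90 (adjusted p = 0.0198). The COL1A1-positive cells were 1199 and 179 in the D28 libraries A and B and held 1746 and 834.6 CPM of MDK, against 617.3 and 269.6 CPM in the remaining cells. The D28 libraries thus differed in MDK with and without these cells. DESeq2 also called the D28 (adjusted p = 0.00883) and D45 differences (adjusted p = 0.00566) from D11. The D11 to D28 change was -2.72 without library A of D28 and -1.01 without library B, and the D28 to D45 change was 1.10 without library A and -0.67 without library B.

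PTN rose. It was at 73.7 and 58.6 CPM on D11, 1133 and 789.0 CPM on D28, and 1467 and 1908 CPM on D45. The days did not overlap, with all D28 libraries above those of D11 and all D45 libraries above those of D28. The log2 change was 3.63 (SE 0.359, adjusted p = 0.00137) from D11 to D28 and 4.27 (SE 0.370, adjusted p = 4.8e-04) from D11 to D45, a 19.3-fold difference. From D28 to D45 the change of 0.64 (SE 0.325, adjusted p = 0.222) did not pass, and it was 1.12 without library A of D28. Without COL1A1-positive cells the changes from D11 were 3.55 and 4.36, and both passed.

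PTPRZ1 was at 103.4 and 71.9 CPM on D11, 91.9 and 236.1 CPM on D28, and 692.9 and 685.0 CPM on D45. The D28 libraries, 2.57-fold apart, overlapped those of D11, and both D45 libraries were above all others. The oligodendrocyte lineage list was at 4.09 and 3.38 CPM on D11, 21.2 and 65.9 CPM on D28 and 597.4 and 479.1 CPM on D45. In D28 library A the list was above both D11 libraries, while the receptor lay between them. Within D28 the list, SOX10 (3.42 and 10.8 CPM) and the receptor were all higher in library B. The SOX10-negative cells held 90.1 and 211.5 CPM of PTPRZ1 on D28 and 656.4 and 649.7 CPM on D45. The astrocyte list, 5 of 5 markers and none at 0, was at 40.4 and 36.9, 107.7 and 105.9, and 425.8 and 466.4 CPM. The part of oligodendrocyte lineage cells and astrocytes in the receptor's values was not tested. The receptor gene rose by 1.97 on the log2 scale (SE 0.379, adjusted p = 0.0276) from D28 to D45, and by 2.57 (SE 0.388, adjusted p = 0.00322), or 5.93-fold, from D11 to D45. The change from D11 to D28 was 0.60 (SE 0.367, adjusted p = 0.277), which became 1.06 without library A of D28 and -0.07 without library B. The D28 to D45 call was lost without library A of D11 (2.00, adjusted p = 0.0539), library B of D11 (2.00, 0.0540), library A of D45 (2.00, 0.167) or library B of D45 (1.94, 0.142). With the library letter as a block the D28 to D45 change did not pass either. Without COL1A1-positive cells it was 2.13 (adjusted p = 0.0189), and the D11 to D45 change was 2.69 (adjusted p = 0.00233).

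These calls stand against a background in which 23.1% of the genes tested passed from D11 to D28, 9.40% from D28 to D45 and 34.6% from D11 to D45. The smallest p that exact permutation allows for 2 libraries against 2 is 0.333, and for this reason the tests rest on the spread modelled over all genes.

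**Figure D1:**
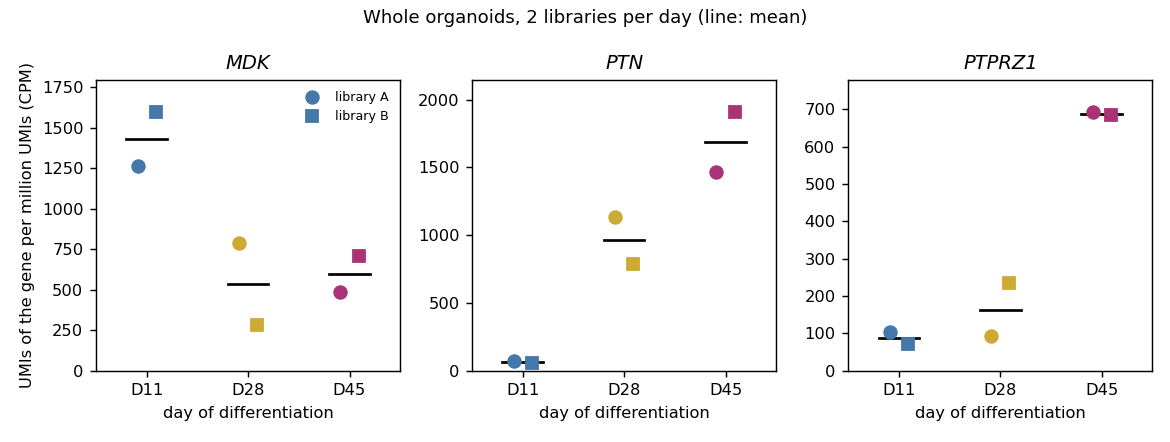
MDK, PTN and PTPRZ1 in whole organoids, in CPM, by day of differentiation; circles are library A, squares library B and lines the mean of 2 libraries. MDK was highest in the D11 libraries, PTN was above 780 CPM from D28 on, and PTPRZ1 was near 690 CPM in both D45 libraries.

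The balance of the ligands moved accordingly. In whole organoids there were 17.2 and 27.2 MDK UMIs per PTN UMI on D11. The ratio was 0.697 and 0.359 in the D28 libraries and 0.330 and 0.370 in those of D45. MDK was thus the more counted ligand in both D11 libraries and PTN in all 4 later ones. In cells positive for CORIN, a floor plate gene, the ratio ran from 49.4 and 66.7 on D11 through 0.945 and 1.03 on D28 to 0.675 and 0.877 on D45, above that of whole organoids in every library. The genes differ in transcript ends and sequence, so the ratio is compared between libraries only and a ratio of 1 does not mark equal numbers of transcripts.

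Cells were then grouped by at least 1 UMI of a marker. CORIN marks the floor plate and LMX1A the dopaminergic progenitors that arise there, STMN2 encodes a tubulin-binding protein of neurons, AQP4 is the water channel of astrocytes and SOX10 a transcription factor of the oligodendrocyte lineage. A cell can carry several markers. On D45, STMN2 UMIs were found in 71.2% and 67.9% of the AQP4-positive cells of libraries A and B, so a positive cell is not taken as a cell type. The AQP4-positive cells were 6 and 2 on D11, too few to be fitted, 127 and 63 on D28, and 1756 and 2285 on D45.

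The groups were checked against marker lists from which the grouping gene was left out. The summed floor plate list was 2.73, 3.77 and 2.69 times as high in CORIN-positive as in other cells on D11, D28 and D45, the dopaminergic progenitor list 1.31, 2.03 and 3.71 times as high in LMX1A-positive cells, and the neuron list 7.14, 5.49 and 2.44 times as high in STMN2-positive cells. The astrocyte list was 2.41 and 4.22 times as high in AQP4-positive cells on D28 and D45, and the radial glia list 2.17 and 2.66 times. Other lists were raised as well. In AQP4-positive cells the mitotic list was 3.66 times as high on D28, above the astrocyte ratio of that day, and the ciliated list 1.66 times on D28 and 3.97 times on D45. The fibroblast list was 1.57 times as high in them on D28 and 0.419 times on D45. In CORIN-positive cells the ciliated list was 2.56, 3.78 and 1.96 times as high on D11, D28 and D45, and the fibroblast list 2.14, 0.485 and 1.94 times. In SOX10-positive cells the mitotic list was 2.69 and 2.81 times as high on D28 and D45. In LMX1A-positive cells the dopaminergic neuron list was 2.52 and 3.42 times and the neuron list 1.51 and 1.43 times as high on those days, and 84.4% and 74.8% of the D28 cells also held STMN2. The part of these other cells in the results was not tested. SOX10-positive cells went against their label on D11, where the oligodendrocyte lineage list was 1.06 times as high as in other cells. On D28 the list was at 21.1 against 17.7 CPM in library A and at 638.5 against 12.6 CPM in library B, and on D45 it was 17.5 times as high. The D11 cells and those of D28 library A are therefore called SOX10-positive only.

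Marker-positive cells were also deeper than the others. On D45 the median UMIs per cell were 9394 and 10901 in AQP4-positive cells against 1995.5 and 3469 in the rest, 11203.5 and 10959 against 1772 and 3028.5 for SOX10, and 3687.5 and 5778 against 1109.5 and 1562.5 for STMN2. Each comparison was hence repeated with every cell thinned to 1000 UMIs before grouping. Where cells positive for a marker and no other are used below, only the positive side was limited in this way. The cells compared with them lacked that marker but could hold any of the others.

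AQP4-positive cells held more PTN, PTPRZ1 and MDK than other cells on both days on which they were measured. PTN reached 3700 and 2462 CPM in them on D28 and 3563 and 3697 CPM on D45, against 1080 and 773.9 CPM, then 1059 and 1446 CPM, in the AQP4-negative cells of the same libraries. All 4 positive values were above all 4 negative ones. The difference between positive and other cells, in a fit with the library as a term, was 1.81 (SE 0.108, adjusted p = 3.2e-08) on D28 and 1.69 (SE 0.107, adjusted p = 2.8e-08) on D45 on the log2 scale.

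PTPRZ1 was at 339.5 and 615.9 CPM in AQP4-positive cells on D28 and at 1379 and 1223 CPM on D45. The AQP4-negative cells held 86.7 and 232.7 CPM, then 559.6 and 546.2 CPM, so that every positive value exceeded its own library's remainder. On D28 the values overlapped those of SOX10-positive cells, 138.8 and 575.2 CPM, and with at least 2 UMIs of the marker the AQP4 group held 417.5 and 631.1 CPM and the SOX10 group 255.4 and 947.9 CPM. The log2 difference was 1.77 (SE 0.121, adjusted p = 1.1e-07) on D28 and 1.37 (SE 0.115, adjusted p = 3.6e-07) on D45.

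MDK was also higher in AQP4-positive cells. It was at 1343 and 798.7 CPM on D28 and 1051 and 1137 CPM on D45, against 778.0 and 278.2 CPM, then 373.6 and 596.0 CPM, in the negative cells. The log2 difference was 1.23 (SE 0.159, adjusted p = 5.3e-05) on D28 and 1.35 (SE 0.155, adjusted p = 7.5e-06) on D45. All 3 genes thus passed on both days, on a background of 17.7% and 34.5% of genes. With cells thinned to 1000 UMIs the D45 differences were 1.24 for MDK, 1.61 for PTN and 1.34 for PTPRZ1, and all passed. Too few thinned AQP4-positive cells were left on D28.

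By share, the AQP4-positive cells were 8.74% and 12.4% of the cells on D45 and held 16.3% and 20.5% of all UMIs. They held 35.3% and 33.0% of the MDK UMIs, 39.5% and 39.8% of the PTN UMIs and 32.4% and 36.6% of the PTPRZ1 UMIs. Each of these shares was larger than the group's share of all UMIs in the same library.

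STMN2-positive cells held less MDK and less PTPRZ1 than other cells on all 3 days. MDK in them was at 1022 and 1349 CPM on D11, 717.4 and 261.4 CPM on D28, and 419.0 and 648.2 CPM on D45. The log2 differences from STMN2-negative cells were -0.50, -0.58 and -0.65 for MDK and -0.48, -0.50 and -0.58 for PTPRZ1, and all 6 passed. With cells thinned to 1000 UMIs they were -1.08, -1.53 and -1.42 for MDK and -1.49, -1.31 and -0.99 for PTPRZ1, all past the threshold. PTPRZ1 was at 84.4 and 61.3 CPM on D11, 88.2 and 211.6 CPM on D28, and 622.1 and 624.5 CPM on D45, with both D45 libraries above the others.

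PTN in STMN2-positive cells was at 72.9 and 65.0 CPM on D11, 1144 and 708.8 CPM on D28, and 1320 and 1763 CPM on D45. Its difference from other cells was -0.0004 on D11 (adjusted p = 1), -0.33 on D28 (adjusted p = 0.0523) and -0.55 on D45 (adjusted p = 0.00692), and the last was lost without library A of D45 (-0.51, adjusted p = 0.117). After thinning the differences were -0.22 (adjusted p = 0.268), -1.28 (adjusted p = 6.2e-07) and -1.20 (adjusted p = 5.6e-06). The D28 difference was -0.62 without library A of that day and -0.03 without library B. Of all genes, 32.2%, 40.6% and 30.8% passed in these comparisons on D11, D28 and D45.

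CORIN-positive cells held more MDK and less PTN. MDK was at 1564 and 1818 CPM in them on D11, 792.4 and 344.1 CPM on D28, and 957.4 and 1055 CPM on D45, and the differences from other cells were 0.58 (adjusted p = 0.0166), 0.47 (adjusted p = 0.0240) and 0.99 (adjusted p = 0.00200). On D45 the fibroblast list was at 903.4 and 2194 CPM in these cells and 390.5 and 1203 CPM in the others. PTN was at 31.6 and 27.2 CPM on D11, 838.6 and 332.8 CPM on D28, and 1418 and 1203 CPM on D45. It was lower than in other cells on D11 by -1.63 (adjusted p = 0.00142) and on D28 by -0.96 (adjusted p = 0.00968), and differed by -0.27 (adjusted p = 0.443) on D45, which was -0.93 (adjusted p = 1.4e-06) after thinning.

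The size of these differences varied between alternatives, among them left-out libraries and thinning, which also changed which cells were CORIN-positive. The D11 difference of MDK was 0.48 (adjusted p = 0.257) without library A of D11, 0.66 (adjusted p = 0.0816) without library B, 0.61 (adjusted p = 0.0588) with at least 2 CORIN UMIs and 0.19 (adjusted p = 0.433) after thinning. The D28 difference of MDK was 0.51 (adjusted p = 0.0630) with at least 2 CORIN UMIs and 0.27 (adjusted p = 0.231) in cells positive for CORIN and no other marker. The D28 differences without library B of that day were 0.20 for MDK (adjusted p = 0.310) and -0.46 for PTN (adjusted p = 0.0811), and the D45 difference of MDK without library A of that day was 0.76 (adjusted p = 0.0539). With CORIN alone the D45 differences of PTN and PTPRZ1 passed, at -1.17 (adjusted p = 0.00422) and -0.82 (adjusted p = 0.0424). In all CORIN-positive cells the PTPRZ1 differences were -0.40, 0.22 and -0.14 and did not pass, on a background of 23.8%, 44.5% and 23.3% on D11, D28 and D45. On D11 the CORIN-positive cells held 52.5% and 56.4% of the MDK UMIs and 18.2% and 23.0% of the PTN UMIs, beside 42.4% and 49.5% of all UMIs.

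LMX1A-positive cells held more MDK and less PTN than other cells on D11, when 63.3% and 59.1% of them also held CORIN. MDK in them was at 1715 and 2004 CPM on D11, with the highest mean of the 4 groups measured on that day, then at 600.0 and 312.4 CPM on D28 and 591.9 and 819.2 CPM on D45. PTN was at 33.9 and 28.0 CPM, 744.1 and 884.3 CPM, and 1915 and 2633 CPM on the same days. On D11 the differences from other cells were 0.59 for MDK (adjusted p = 0.0429) and -1.33 for PTN (adjusted p = 0.00655). Neither ligand passed on D28 or D45, with -0.25 and 0.20 for MDK and -0.39 and 0.42 for PTN. After thinning the D45 differences turned, to -0.66 for MDK (adjusted p = 3.2e-09) and -0.68 for PTN (adjusted p = 1.4e-13), and both passed. In cells positive for LMX1A and no other marker they passed on the higher side, at 1.04 for MDK (adjusted p = 2.5e-06) and 0.96 for PTN (adjusted p = 0.0230), so the direction on D45 depended on how the cells were taken. That setting left out the 81.5% and 77.4% of D45 LMX1A-positive cells that held STMN2, but kept STMN2-positive cells on the other side. STMN2-negative cells held more of both ligands on D45, and the part of this in the values was not tested. The D28 difference of MDK in cells with LMX1A only was 0.40 (adjusted p = 0.0458). In all LMX1A-positive cells the D28 differences without library B of that day were -0.69 for MDK and -1.001 for PTN.

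PTPRZ1 was lower in LMX1A-positive cells. It was at 59.8 and 48.0 CPM on D11, 67.8 and 165.2 CPM on D28, and 593.7 and 652.3 CPM on D45, and differed from other cells by -0.85 (adjusted p = 5.0e-04), -0.69 (adjusted p = 0.00642) and -0.25 (adjusted p = 0.0838). In cells positive for LMX1A and no other marker the D28 difference was -0.12 (adjusted p = 0.684), and after thinning that of D45 was -0.61 (adjusted p = 1.9e-07). The background was 24.4%, 4.83% and 14.9% of genes on D11, D28 and D45. On D11 the MDK call was lost without library A (0.50, adjusted p = 0.342) or B of D11 (0.64, 0.199), or A (0.59, 0.0912) or B (0.58, 0.0894) of D45. The PTN call was lost without library A (-1.36, adjusted p = 0.0754) or B (-1.34, 0.0670) of D11.

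SOX10-positive cells held more PTPRZ1 than other cells on D28 and D45 and, on D45, less of both ligands. PTPRZ1 was at 127.2 and 72.6 CPM on D11, 138.8 and 575.2 CPM on D28, and 834.5 and 833.2 CPM on D45. The differences from other cells were -0.02 on D11 (adjusted p = 0.966), 1.01 on D28 (adjusted p = 0.00582) and 0.54 on D45 (adjusted p = 0.0167). The D28 value was 1.46 without library A, whose SOX10-positive cells held little of the oligodendrocyte list, and 0.49 without library B.

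MDK in SOX10-positive cells was at 1166 and 1515 CPM on D11, 783.9 and 230.6 CPM on D28, and 247.2 and 414.9 CPM on D45, below the other 4 groups on that day. After thinning the D45 values were 170.6 and 333.9 CPM and overlapped those of STMN2-positive cells, 177.3 and 276.6 CPM. On D45 it was lower than in other cells, by -0.83 (adjusted p = 6.2e-06), and so was PTN, at 960.9 and 1461 CPM, by -0.41 (adjusted p = 0.0145). After thinning the PTN difference was -0.37 (adjusted p = 0.0640). The background was 0.0701%, 6.17% and 43.8% of genes on D11, D28 and D45, and no member passed on D11, where the MDK difference was -0.29 (adjusted p = 0.140), and -1.19 (adjusted p = 3.0e-05) after thinning. The thinned D11 value rests on 34 and 42 SOX10-positive cells with 22 and 52 MDK UMIs. They were at 647.1 and 1238 CPM, against 1207 and 1506 CPM in the other thinned cells, so its size is uncertain. In D11 cells positive for SOX10 and no other marker all 3 passed, with -0.53 for MDK (adjusted p = 0.0159), 1.01 for PTN (adjusted p = 1.5e-07) and 0.65 for PTPRZ1 (adjusted p = 0.0219). These values rest on 80 and 65 cells in libraries A and B, with 168 and 94 PTN UMIs. The cells compared with them could hold other markers, and the share of all genes that passed in this setting is not given.

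**Figure D2:**
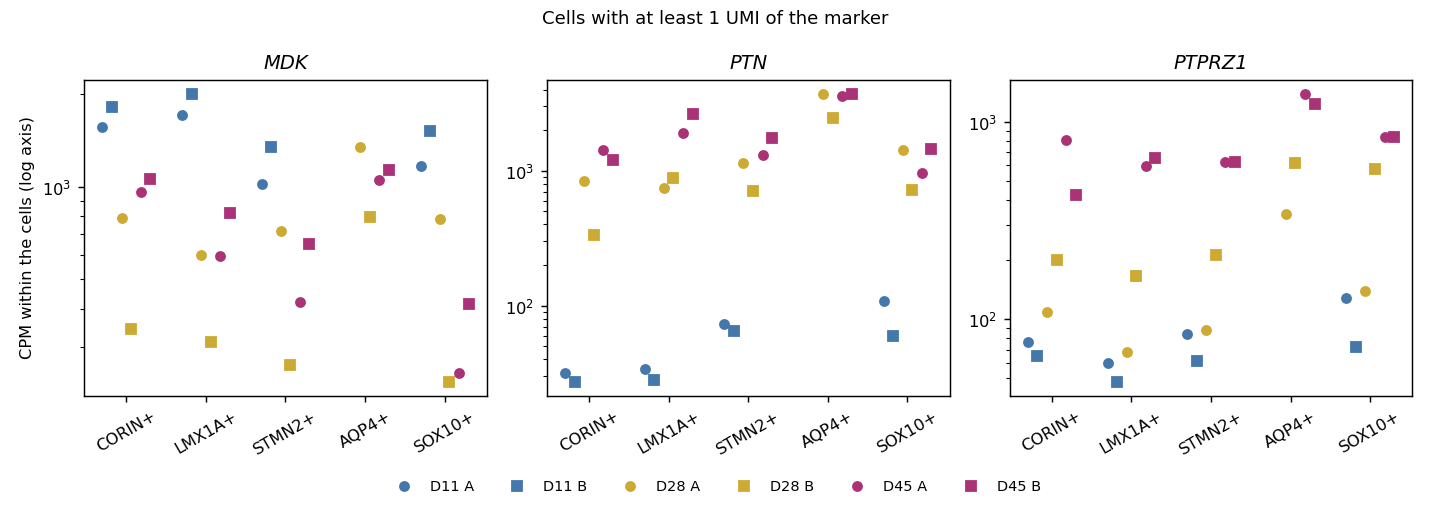
MDK, PTN and PTPRZ1 in cells with at least 1 UMI of each marker, as CPM within those cells on a log axis; colours are days, circles library A and squares library B. AQP4-positive cells were highest in PTN on D28 and D45 and in PTPRZ1 on D45, overlapped SOX10-positive cells in PTPRZ1 on D28, and PTN was under 110 CPM in every group on D11.

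The gap between positive and other cells changed with the day in 6 of 39 such tests. In the comparisons with a call, 8.92% of all genes passed for CORIN and 14.2% for LMX1A between D45 and D11, and 14.7% and 26.3% for SOX10 between D45 and D28 or D11. The shares of all genes in the remaining comparisons are not given. The count of 6 of 39 is therefore not read as a result about these genes.

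**Figure D3:**
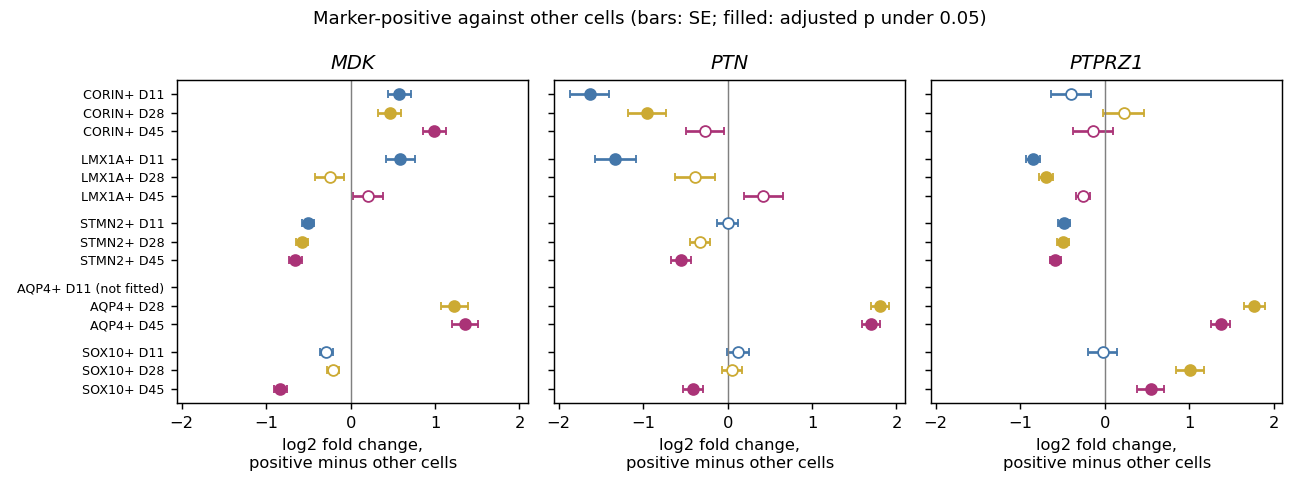
Log2 fold change between marker-positive and other cells of the same libraries, by marker and day; points are fitted values, bars their standard errors and filled points passed at an adjusted p under 0.05. All 3 genes were on the higher side for AQP4, MDK and PTPRZ1 on the lower side for STMN2, and AQP4 on D11 was not fitted.

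Set in order on D45, PTN ran from AQP4-positive (3630 ± 94.5 CPM, SD, n = 2) through LMX1A-positive (2274 ± 508), STMN2-positive (1541 ± 313) and CORIN-positive (1310 ± 152) to SOX10-positive cells (1211 ± 354). The first 2 groups did not overlap with each other or with the rest, and the last 3 overlapped. PTPRZ1 ran from AQP4-positive (1301 ± 111) through SOX10-positive (833.8 ± 0.941) to STMN2-positive (623.3 ± 1.72), LMX1A-positive (623.0 ± 41.4) and CORIN-positive cells (614.3 ± 270.4), of which again the last 3 overlapped. MDK ran from AQP4-positive (1094 ± 61.0) and CORIN-positive (1006 ± 69.1), which overlapped, through LMX1A-positive (705.5 ± 161) and STMN2-positive (533.6 ± 162), which also overlapped, to SOX10-positive cells (331.1 ± 119). With cells thinned to 1000 UMIs AQP4-positive cells stayed highest in all 3 genes, SOX10-positive cells second in PTPRZ1 and CORIN-positive cells second in MDK, while other places in the order changed. PTN in LMX1A-positive cells was then at 772.0 and 1057 CPM, overlapping SOX10-positive (729.7 and 1181), STMN2-positive (670.3 and 858.4) and CORIN-positive cells (878.8 and 630.8).

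The days were also compared within each group. PTN rose from D11 to D28 in all 4 groups that could be fitted, by 4.29 in CORIN-positive (adjusted p = 0.00220), 4.44 in LMX1A-positive (adjusted p = 8.2e-05), 3.61 in STMN2-positive (adjusted p = 0.00236) and 3.62 in SOX10-positive cells (adjusted p = 0.0127). The SOX10 value missed the threshold without library A (4.07, adjusted p = 0.132) or B (3.25, adjusted p = 0.168) of D11. The background was 23.7%, 30.2%, 16.1% and 7.89% of genes for CORIN, LMX1A, STMN2 and SOX10.

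From D28 to D45, PTN rose further in LMX1A-positive cells, by 1.30 (SE 0.277, adjusted p = 0.0221). This change was 0.07 (adjusted p = 0.889) after thinning and 0.76 (adjusted p = 0.208) in cells positive for LMX1A and no other marker. It was lost without library A (1.32, adjusted p = 0.0609) or B (1.32, 0.0607) of D11 and without A (1.56, 0.0693) or B (0.95, 0.112) of D45, and with the library letter as a block (1.29, 0.0563). The changes in CORIN-positive (0.94), STMN2-positive (0.58), SOX10-positive (0.17) and AQP4-positive cells (0.04) did not pass.

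PTPRZ1 did not pass from D11 to D28 in the 4 groups that could be fitted, at 0.995 in CORIN-positive (adjusted p = 0.0599), 0.79 in LMX1A-positive (adjusted p = 0.110), 0.81 in STMN2-positive (adjusted p = 0.136) and 1.71 in SOX10-positive cells (adjusted p = 0.113). Without library A of D28 the values were 1.25, 1.27, 1.21 and 2.37. The CORIN and SOX10 values passed with DESeq2 (0.97 and 1.68). In LMX1A- and STMN2-positive cells the change also passed under some alternatives, and not every alternative that gained a call is named here. PTPRZ1 rose from D28 to D45 in CORIN-positive cells by 1.86 (SE 0.324, adjusted p = 0.0123), in LMX1A-positive cells by 2.27 (SE 0.348, adjusted p = 0.00804) and in STMN2-positive cells by 2.00 (SE 0.337, adjusted p = 0.0234). The changes of 1.31 in AQP4-positive (adjusted p = 0.0591) and 1.30 in SOX10-positive cells (adjusted p = 0.204) did not pass. The background was 19.1% for CORIN, 16.0% for LMX1A, 6.15% for STMN2, 9.03% for AQP4 and 4.57% for SOX10. The 3 calls were lost without library A of D45 (CORIN 1.45, adjusted p = 0.0580; LMX1A 2.39, 0.0623; STMN2 2.06, 0.156). Without library B of D45 the LMX1A (2.11, 0.0586) and STMN2 calls (1.96, 0.141) were lost, and the STMN2 call was also lost without library A (2.00, 0.0650) or B (2.00, 0.0638) of D11 and with the library letter as a block (2.03, 0.0555). In cells with no other marker the CORIN (1.40, adjusted p = 0.0622) and STMN2 calls (1.48, 0.105) were lost. With DESeq2 the AQP4 change of 1.30 passed (adjusted p = 6.8e-04).

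MDK fell from D11 to D28 in CORIN-positive cells by 1.61 on the log2 scale (SE 0.467, adjusted p = 0.0453) and in LMX1A-positive cells by 2.26 (SE 0.422, adjusted p = 0.00554). In STMN2-positive cells the value was -1.39 (adjusted p = 0.132; -1.89 and 0.0176 after thinning) and in SOX10-positive cells -1.44 (adjusted p = 0.175). The CORIN call was lost without library A (-1.75, adjusted p = 0.128) or B (-1.46, 0.178) of D11 and without A (-1.68, 0.0614) or B (-1.68, 0.0610) of D45, with all barcodes (-1.59, 0.0663) and with the library letter as a block (-1.70, 0.0641). From D28 to D45 MDK did not pass in any of the 5 groups, with 0.61 in CORIN-positive, 0.40 in LMX1A-positive, -0.06 in STMN2-positive, -0.17 in AQP4-positive and -0.64 in SOX10-positive cells. Without library A of D28 the change was 1.54 in CORIN-positive and 1.14 in LMX1A-positive cells, and without library B of D28 it was -1.29 in SOX10-positive cells.

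Shares of positive cells were compared after thinning to 1000 UMIs, which left out 6.63% to 33.0% of the cells of a library. MDK was then found in 61.3% and 68.6% of the D11 cells, 33.8% and 17.3% of the D28 cells and 20.4% and 31.4% of the D45 cells, and without thinning in 90.9%, 86.4%, 61.5%, 49.6%, 36.5% and 52.4%. PTN was found in 5.78% and 4.29%, 26.9% and 22.0%, and 35.5% and 45.1%. PTPRZ1 was found in 9.05% and 6.38%, 6.68% and 15.4%, and 31.1% and 33.3%.

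COL1A1-positive cells were set beside the others because little of the receptor was assumed in them. This was not shown. Without thinning, 62.7% and 44.0% of them held a PTPRZ1 UMI on D11, against 43.4% and 28.7% of all cells, which had fewer UMIs per cell. They are hence not a measured background of free RNA. After thinning to 1000 UMIs, a PTPRZ1 UMI was found in 6.76% (exact 95% interval 4.34 to 9.98) and 7.12% (5.59 to 8.91) of the COL1A1-positive cells on D45, and in 60.5% (56.1 to 64.8) and 63.8% (60.03 to 67.5) of the AQP4-positive cells. On D28 the COL1A1-positive cells held it in 5.47% and 10.0%, against 6.68% and 15.4% of all cells. On D28 the share of all cells lay within the interval of the COL1A1-positive cells in library A (3.42 to 8.24) and in library B (3.76 to 20.5). The interval of library B was wide, and no level of free RNA is read from either. On D45 the shares of 31.1% and 33.3% were above the intervals of that day. The intervals cover counting error only. MDK was found in 66.5% and 59.2% of the COL1A1-positive cells on D45, above its share of 44.2% and 52.6% in AQP4-positive cells. PTN was found in 39.6% (34.7 to 44.7) and 38.3% (26.1 to 51.8) of the COL1A1-positive cells on D28, above its share in all cells, and in 13.2% and 23.6% on D45, below it.

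Receptor and ligand were next counted in the same cells. Of thinned cells with a PTPRZ1 UMI, 53.8% and 40.4% also held PTN on D28 and 55.8% and 65.9% on D45, against 25.0% and 18.6%, then 26.3% and 34.8%, of the cells without one. On D11 the shares were 9.57% and 5.38% with and 5.40% and 4.21% without the receptor. The D28 share of 53.8% lay above the interval for COL1A1-positive cells of library A, and that of 40.4% lay within the interval for library B. On D28 those cells held PTN more often than all cells did, so they are no background for it. The share with PTN was the higher one in receptor-positive cells of all 6 libraries. For MDK the shares with and without PTPRZ1 were 59.6% and 61.5%, then 70.4% and 68.5%, in the D11 libraries, so there the direction differed between libraries. On D28 and D45 MDK was found in 49.8%, 24.4%, 29.9% and 39.6% of the receptor-positive cells and in 32.7%, 16.0%, 16.2% and 27.2% of the others. Cells with both PTN and PTPRZ1 made up 0.867% and 0.344% of the D11 cells, 3.60% and 6.22% of the D28 cells and 17.3% and 21.9% of the D45 cells. Cells are not replicates and no test was made of these shares. The part of doublets and free RNA in them was not tested.

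**Figure D4:**
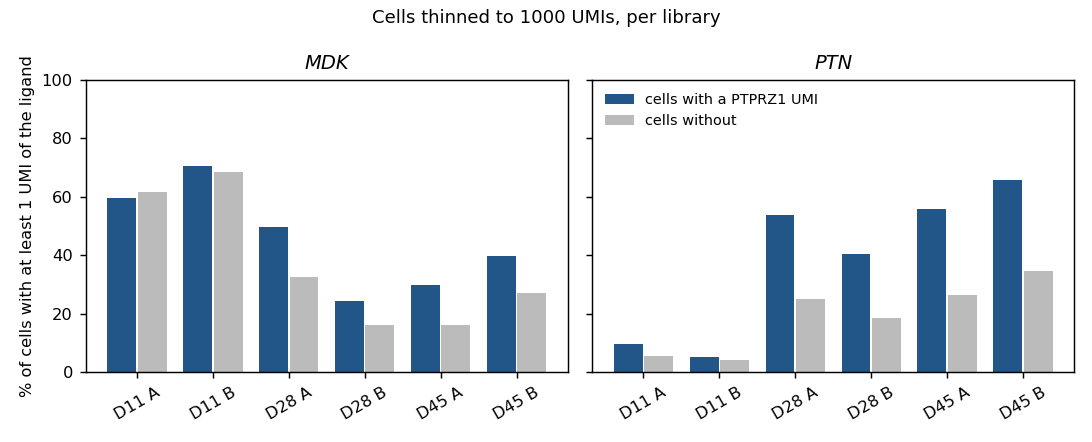
Percentage of cells with at least 1 UMI of MDK (left) or PTN (right) among cells with and without a PTPRZ1 UMI, per library, after thinning each cell to 1000 UMIs; each bar is 1 library. PTN was found more often in receptor-positive cells in all 6 libraries, from 5.38% against 4.21% in D11 library B to 65.9% against 34.8% in D45 library B.

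Likeness of pattern was measured by Pearson's r over 28 sums, the 5 marker-positive groups in the 6 libraries without AQP4 on D11, for 8872 genes with a mean of at least 10 CPM. The sums share libraries and partly cells, and r is given as a description. The genes most like MDK were LXN (0.919), GCSH (0.898), TTYH2 (0.896), FUOM (0.890) and PLIN3 (0.888). Most like PTN were NTRK2 (0.974), which encodes the BDNF receptor, NFIX (0.970), IFNGR2 (0.969), SLC1A3 (0.961), which encodes a glutamate transporter of astrocytes, and FGL2 (0.960). Most like PTPRZ1 were BCAN (0.976), which encodes the brain proteoglycan brevican, GPR137B (0.965), EVI5 (0.952), GRIK4 (0.951) and IGSF11 (0.948). Between the members r was 0.806 for PTN and PTPRZ1, -0.481 for MDK and PTN, and -0.432 for MDK and PTPRZ1.

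Other genes of the pathway were taken from a list of 53, of which 46 were in the files and 45 could be tested in whole organoids. From D11 to D45, 14 rose, 6 fell and 25 did not pass, with a median log2 change of 0.08 against -0.01 over all genes tested, for which 34.6% passed. Of all genes 17.3% rose and 17.4% fell in that comparison. From D11 to D28, 7 pathway genes rose and 7 fell, beside 12.5% and 10.6% of all genes, and from D28 to D45, 9 rose and 2 fell, beside 4.47% and 4.93%. The counts from D11 to D45 differed between the groups of the list, and the groups were not tested as sets.

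Among the receptors and co-receptors of the ligands, 1 of 11 rose and 5 fell from D11 to D45 (median -0.35). ALK, LTK, SDC4 and LRP1 were also among the 15 listed, but were not found by symbol and are not part of these counts. SDC2, a heparan sulfate proteoglycan of the cell surface, was at 145.7 and 147.1 CPM on D11, 100.8 and 88.9 CPM on D28, and 43.5 and 63.0 CPM on D45, a log2 change of -1.86 (adjusted p = 0.00234). The libraries of the 3 days did not overlap. GPC2, a glypican, changed by -1.61 (adjusted p = 8.0e-04) and SDC1 by -1.21 (adjusted p = 0.0340), while SDC3, a syndecan of neural tissue that binds PTN, rose by 1.33 (adjusted p = 0.00320). NCL (-1.11) and ITGA6 (-0.89) also fell.

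Of the other binding partners of PTPRZ1, 5 of 6 rose and 1 fell (median 1.72). CNTN1, encoding contactin, a neuronal adhesion molecule that binds the receptor, was at 17.3 and 15.5 CPM on D11, 64.2 and 105.5 CPM on D28, and 310.8 and 300.1 CPM on D45, a log2 change of 3.81 (adjusted p = 2.0e-04). The tenascin genes TNR and TNC, which encode extracellular matrix proteins, changed by 4.11 (adjusted p = 1.3e-04) and 2.56 (adjusted p = 6.0e-04). TNC stayed between 13.9 and 22.2 CPM in the 4 libraries of D11 and D28 and reached 120.0 and 142.6 CPM on D45. NRCAM, a neuronal adhesion molecule, was at 690.2 and 674.1 CPM on D11 and 283.2 and 300.0 CPM on D45 (-1.63, adjusted p = 0.00166).

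Among 7 substrates of the phosphatase, 3 rose and none fell: DNER (2.55, adjusted p = 3.2e-04), a transmembrane ligand of Notch receptors, the adducin gene ADD2 (1.47, adjusted p = 0.00597) and the kinase gene FYN (1.11, adjusted p = 0.00836). None of 5 related receptor phosphatases passed, with values from -0.04 to 0.77 and the lowest adjusted p, 0.0514, for PTPRD. Of 11 genes for the synthesis of chondroitin and heparan sulfate, 2 rose, the sulfotransferase genes HS6ST2 (0.90, adjusted p = 0.0104) and CHST12 (0.74, adjusted p = 0.0402). Of 5 other chondroitin sulfate proteoglycans 3 rose. BCAN was at 0.329 and 0.278 CPM on D11, 2.12 and 18.3 CPM on D28, and 176.4 and 172.4 CPM on D45 (8.76, SE 1.03, adjusted p = 0.00125), and ACAN (5.496, adjusted p = 0.00143) and NCAN (1.17, adjusted p = 0.0134), which encode aggrecan and neurocan, rose with it. On D45 the oligodendrocyte lineage list stood at 597.4 and 479.1 CPM and the astrocyte list at 425.8 and 466.4 CPM, against 3.38 to 4.09 and 36.9 to 40.4 CPM on D11, and their part in these changes was not tested.

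**Figure D5:**
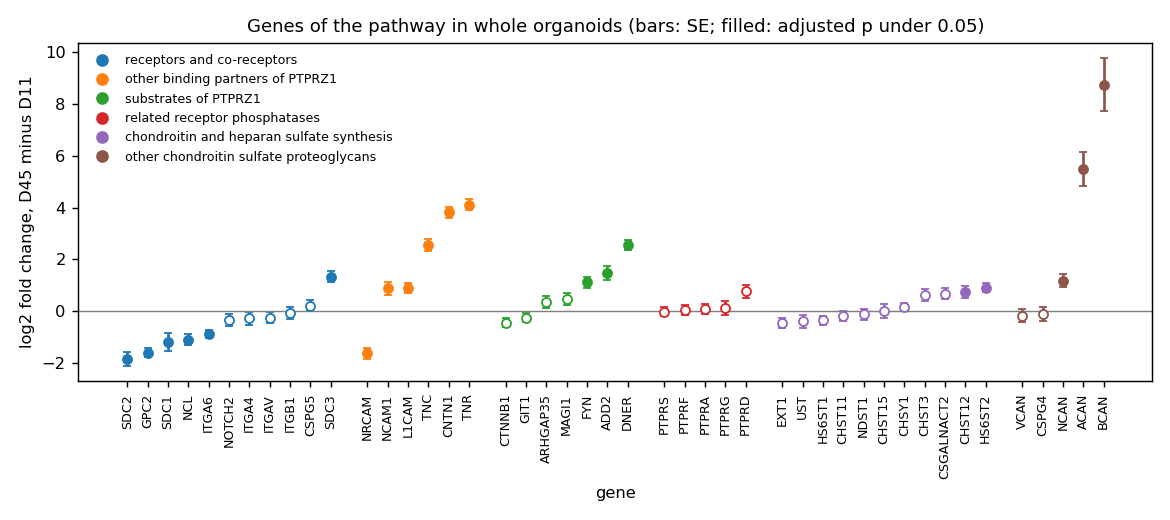
Log2 fold change from D11 to D45 in whole organoids of 45 genes of the pathway, in 6 groups; bars are standard errors and filled points passed at an adjusted p under 0.05. BCAN, ACAN, TNR and CNTN1 changed by more than 3.8, and SDC2, NRCAM and GPC2 had the lowest values.

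Pathway genes were also compared between positive and other cells on D45. In AQP4-positive cells 13 of 45 were higher and 14 lower than in other cells, where 34.5% of all genes passed, with TNC (2.01, adjusted p = 8.5e-09), the laminin receptor subunit ITGA6 (1.56, adjusted p = 1.9e-08), BCAN (1.20, adjusted p = 3.7e-06) and CSPG5 (1.10, adjusted p = 4.6e-06) on the higher side and TNR (-1.36, adjusted p = 1.5e-06), L1CAM (-1.30, adjusted p = 2.0e-06) and ACAN (-1.47, adjusted p = 8.1e-06) on the lower. In SOX10-positive cells 20 were higher and 17 lower, beside 43.8% of all genes, among them all 5 other proteoglycans on the higher side, with BCAN at 2.12 (adjusted p = 0.00164), and TNC on the lower (-1.07, adjusted p = 3.9e-04). The counts were 8 and 14 in STMN2-positive cells (30.8% of all genes), 9 and 14 in CORIN-positive cells (23.3%) and 2 and 6 in LMX1A-positive cells (14.9%), the last a share near that of all genes.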

How the data were processed

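The 6 libraries of porcine midbrain-like organoids, 2 per day, came from a GEM-X 3′ kit of 10x Genomics. Cell Ranger 8.0.1 was run by the authors against the Sscrofa11.1 assembly, and the deposited values were whole UMI counts per gene and barcode, not normalized. Their own analysis used Seurat 4.3.0. Cells with 200 to 7000 genes and at most 10% of UMIs from 37 mitochondrial genes were kept. Doublets, scored against simulated ones at 0.4% per 1000 cells, were removed only as an alternative. Counts were summed per library, or per library and marker-positive group of at least 20 cells, and fitted with edgeR 4.0.16 (TMM, filterByExpr, quasi-likelihood test) in R 4.3.3. Changes between days used a model with the day as its term. Positive and other cells were compared with the library as a term and an effect per day. Calls are at an adjusted p of 0.05 over all genes tested. Standard errors are the log2 change over the square root of F. DESeq2 1.42.0, other size factors, no filter, all barcodes, at least 2 marker UMIs, a single marker, cells thinned to 1000 UMIs, left-out libraries and a block on the library letter were alternatives. The scripts were tested on simulated counts.

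The paper calls the libraries of a day biological duplicates, and the labels do not say whether organoids were pooled, so p-values between days measure the spread between these libraries. The p-values of positive against other cells come from fits with the library as a term. They measure only how the gap within a library varied, and not the spread between libraries. Whether the letters A and B pair libraries of different days is not stated, and the main fits between days did not use them. The members and lists were chosen with earlier results of these data known. Named pathway genes were those past the threshold with the largest changes, up to 4 per group, and genes of like pattern the 5 with the highest r per member, on log2 of CPM plus 1. NCL, ITGA6, L1CAM, PTPRD and the genes named by group of cells were added after their values were seen. Shares have exact Clopper-Pearson intervals (95%). No protein or promoter sequence was used here.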

Additional observations from a re-analysis of the deposited data

Results flagged for a closer look

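In 6 of 39 differences tested, the gap between marker-positive and other cells of a gene changed with the day past the threshold (edgeR's quasi-likelihood test of the difference itself, Benjamini-Hochberg adjustment over all genes). Per gene, 13 were tested, of which 2 passed for MDK, 3 for PTN and 1 for PTPRZ1. The share of all genes is given only for comparisons in which a member passed. The values are log2.

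PTN in CORIN-positive relative to other cells was lower on D11 and near the others on D45, a difference between days of 1.37 (adjusted p = 0.0361, where 8.92% of genes passed). It was 0.96 (adjusted p = 0.0187) with cells thinned to 1000 UMIs. In cells positive for CORIN and no other marker it was 0.53 (adjusted p = 0.389), with at least 2 CORIN UMIs 1.23 (adjusted p = 0.101) and with all barcodes 1.27 (adjusted p = 0.0737), and the call was also lost without library A (1.36, adjusted p = 0.123) or B (1.37, 0.103) of D11 and without A (1.02, 0.182) or B (1.61, 0.0665) of D45. PTN in LMX1A-positive cells moved in the same direction, by 1.75 (adjusted p = 0.0134, 14.2% of genes), and by 0.81 (adjusted p = 0.00104) after thinning. That call was lost without library A (1.82, adjusted p = 0.0624) or B (1.81, 0.0626) of D11 and without A (1.86, 0.0829) or B (1.62, 0.108) of D45.

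PTPRZ1 in LMX1A-positive cells differed by 0.59 between D45 and D11 (adjusted p = 0.0159), and by 0.03 (adjusted p = 0.967) after thinning. The call was lost without library A of D11 (0.56, adjusted p = 0.113) or library B of D45 (0.47, adjusted p = 0.0894).

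In SOX10-positive cells the MDK gap was lower on D45 than on D28 by -0.62 (adjusted p = 0.00402, 14.7% of genes) and than on D11 by -0.54 (adjusted p = 0.00309, 26.3% of genes), and the PTN gap lower on D45 than on D11 by -0.53 (adjusted p = 0.0418). After thinning these were -0.02 (adjusted p = 1), 0.46 (adjusted p = 0.501) and 0.83 (adjusted p = 0.789). The thinned D11 sums held only 34 and 42 SOX10-positive cells, with 22 and 52 MDK UMIs and 1 and 2 PTN UMIs. The call against D11 was lost without library A (-0.54, adjusted p = 0.0525) or B (-0.52, 0.0613) of D11 or with SOX10 only (-0.52, 0.0955) for MDK, and without library A of D11 for PTN (-0.22, adjusted p = 0.545). The MDK call against D28 was lost with at least 2 SOX10 UMIs (-1.03, adjusted p = 0.327). The SOX10-positive cells of D11 did not hold the oligodendrocyte lineage list above other cells, so these differences set unlike cells side by side. The part of depth in them was not tested beyond thinning.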

How the results depend on the processing

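The 3 AQP4 differences of D45 and the PTN and PTPRZ1 changes from D11 to D45 in whole organoids passed under every alternative with the library kept as a term. With 2 libraries per day, leaving 1 out assumes that the lone library varies like those of the other days. Calls lost under an alternative are named more fully above than calls gained. Where a library was left out, a gained call is shown by its value at most. MDK from D11 to D28 was -1.62 with DESeq2 and -1.91 without COL1A1-positive cells (-2.72 to -1.01 with single libraries left out), and from D11 to D45 -1.64 with DESeq2, -1.70 with no filter and -1.90 without COL1A1-positive cells (-2.02 to -1.40 with a library left out), and these DESeq2, unfiltered and COL1A1 values passed. From D28 to D45 MDK was 0.0141 without COL1A1-positive cells (-0.67 to 1.10), PTN ranged from 0.31 to 1.12 and PTPRZ1 from 1.56 to 2.64, and PTPRZ1 from D11 to D28 from -0.0727 to 1.06. The causes were not tested.

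It is not stated whether the letters A and B pair the samples. The A minus B deviations correlated at -0.551 between D11 and D28, 0.196 between D11 and D45 and -0.350 between D28 and D45 over 21588 genes. These values cannot decide it, because the D28 libraries also differed in their cell type lists. With the letter as a block, MDK from D28 to D45 was 0.0273 in whole organoids and 0.0019 in STMN2-positive cells, PTPRZ1 from D28 to D45 was 2.01 (adjusted p = 0.0621), and 3314 and 628 genes passed from D11 to D28 and from D28 to D45, in place of 5131 and 2086. Without the library as a block, no comparison of positive with other cells passed for any member: 0 in place of 6 higher and 4 lower for MDK, 2 and 5 for PTN and 4 and 5 for PTPRZ1, and 0 differences between days in place of 6. PTPRZ1 in SOX10-positive cells of D11 was then 0.0018. That fit adds the spread between libraries to the error, and at D45 in AQP4-positive cells PTN was at 1.67 (adjusted p = 0.0850).

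DESeq2 called 4336 genes from D28 to D45. Leaving out 1 library gave 1112 to 10545 genes from D11 to D28, 0 to 10003 from D28 to D45 and 2804 to 12286 from D11 to D45; the lowest of the second was without library A of D45, where 3736 genes had an unadjusted p under 0.05. Of 9 comparisons between days in marker-positive cells, MDK was lower in 2, in 1 with all barcodes, 1 with the letter as a block and 1 to 4 with a library left out, and higher in 0, and 0 to 2 with a library left out. PTN was higher in 5 (3 to 7) and PTPRZ1 in 3 (0 to 8), and in 6 both with DESeq2 and with no filter. After thinning PTN was higher in 1 comparison of positive with other cells. For these counts under the alternatives, and for the counts of differences between days that follow, the share of all genes is not given. None of them is read as a result about MDK, PTN or PTPRZ1. The 6 differences between days became 10 with DESeq2, 13 with no filter, 3 with at least 2 marker UMIs, 15 with a single marker, 10 after thinning and 1 to 21 with a library left out.

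Values between days that changed sign were, after thinning, MDK in LMX1A-positive cells from D28 to D45 (-0.42; -0.0819 to 1.14 with a library left out) and PTN in SOX10-positive cells (-0.28; -0.11 with SOX10 only; -0.28 to 0.87). PTN in STMN2-positive cells was -0.27 with STMN2 only, MDK in AQP4-positive cells 0.15 with at least 2 AQP4 UMIs (-0.56 to 0.46), and left-out libraries gave -0.64 to 1.07 for MDK in STMN2-positive cells, -0.29 to 0.57 for PTN in AQP4-positive cells and -1.29 to 0.64 for MDK in SOX10-positive cells.

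Of the differences from other cells, LMX1A values on D28 turned to 0.40 for MDK (-0.69 to 0.20) and 0.64 for PTN (-1.0011 to 0.23) in cells with LMX1A only. On D45 MDK turned to -0.0282 with all barcodes and -0.66 (adjusted p = 3.2e-09) after thinning, PTN to -0.68 (adjusted p = 1.4e-13) after thinning, and PTPRZ1 to 0.30 with LMX1A only. PTN in STMN2-positive cells of D11 was 0.0111 with other size factors, 0.0109 with DESeq2, 0.0653 with no filter and 0.39 with STMN2 only (-0.1369 to 0.1352). In SOX10-positive cells of D11 PTN was -1.21 after thinning (-0.20 to 0.39), which left 1 and 2 PTN UMIs in the libraries. PTPRZ1 in the D11 cells was 0.0859 with other size factors, 0.0822 with DESeq2 and 0.65 with SOX10 only (-0.21 to 0.11). On D28 MDK was 0.13 with SOX10 only, and PTN -0.0052 with no filter and -0.0131 with at least 2 SOX10 UMIs (-0.12 to 0.21). The D45 minus D11 differences of SOX10-positive cells became 0.46 for MDK and 0.83 for PTN after thinning. PTPRZ1 in CORIN-positive cells ranged from -0.16 to 0.61 on D28 and from -0.66 to 0.25 on D45 with a library left out. Too few cells were left for AQP4 on D28 after thinning or with AQP4 only, and for SOX10 on D11 with at least 2 UMIs.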
